A study of Mus musculus with 15 samples.

Results

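The transcripts described here are those of mouse bone marrow-derived macrophages in the first 15 min of lipid A, the lipopolysaccharide portion recognised by Toll-like receptor 4. The 3 libraries taken at 15 min were set against the 3 taken at 0 min, each pair from the same subcellular fraction: chromatin, nucleoplasmic or cytoplasmic. Of 10020 genes with exon values, 9613 had 1 RPKM or more (reads per kilobase of exon, scaled to library depth in M reads) in at least 1 of these 6 libraries and make up the set. Stk38l, at 1.00 RPKM in its highest library, was the lowest gene inside that limit, and Polr3g, at 0.994 RPKM, the highest of the 407 outside it. The stimulated cells had received 100 ng/ml lipid A for 15 min, and the 0 min cells were unstimulated. All were macrophages grown from marrow of C57BL/6 mice of mixed sex in serum-containing medium with M-CSF, the growth factor that drives macrophage development. The whole series has 15 libraries, and each fraction and time has 1.

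Lipid A bound by MD-2 and CD14 brings Toll-like receptor 4 molecules together, and the adaptors MyD88 and TRIF then switch on IkappaB kinase and the MAP kinases. NF-kappaB dimers, held in the cytoplasm by IkappaB proteins, enter the nucleus, while kinases activate factors already bound to DNA, such as SRF with its ternary complex partners, CREB and AP-1. Genes that respond without new protein synthesis are called immediate early or primary response genes, and among them are both effectors (cytokines, chemokines) and brakes (phosphatases, IkappaB proteins, RNA decay factors).

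The chromatin libraries held 52.3 M reads at 15 min and 46.0 M at 0 min, the nucleoplasmic ones 31.4 M and 25.5 M, and the cytoplasmic ones 16.8 M and 15.6 M. One read in a gene of 1 kb was therefore worth 0.0191 to 0.0642 RPKM. Malat1, a noncoding RNA kept in the nucleus, stood at 1898, 651 and 38.9 RPKM in chromatin, nucleoplasmic and cytoplasmic RNA at 15 min, against 1667, 369 and 38.2 RPKM at 0 min. All 14 macrophage markers examined were among the 9613 genes, and Csf1r, the M-CSF receptor, had 86.5 to 737 RPKM at 15 min and 81.5 to 742 RPKM at 0 min. Cd4, Cd28 and Il7r were the T cell markers measured, of 12, and summed to 27.1 to 147 RPKM at 15 min and 28.5 to 134 RPKM at 0 min. Nearly all of this was Cd28, at 21.3 to 117 RPKM at 15 min and 21.7 to 98.8 RPKM at 0 min, and Il7r, while Cd4 did not exceed 1.32 RPKM at 15 min or 0.938 RPKM at 0 min. Cd79b and Cd22 were the B cell markers measured, of 10, with a summed level of 1.37 to 11.7 RPKM at 15 min and 1.79 to 12.6 RPKM at 0 min. Dendritic, erythroid and stromal lists had 2, 1 and 1 measured members, of 10, 10 and 12, none past 2-fold. Neutrophil markers (8 of 13 measured) summed to 11 to 81.8 RPKM at 15 min and 17.3 to 76.5 RPKM at 0 min, with Camp past 2-fold higher in nucleoplasmic RNA and Elane lower in cytoplasmic RNA. Their part in the results was not tested. In bulk RNA, fewer cells of a type and less RNA per cell cannot be told apart.

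The first comparison asked for which transcripts the mean change over the 3 fractions was large beside its spread between them. In the limma fit paired by fraction, on log2(RPKM + 0.5) with Benjamini-Hochberg adjustment over all genes, 63 of 9613 genes (0.655%) were higher at 15 min and 2 (0.0208%) lower at an adjusted p under 0.05. At an unadjusted p under 0.05 there were 300 higher and 543 lower. Whether fractions of 1 time share plates is not in the labels, and these p-values measure only how far the change differed between fractions. Rescaling each fraction to a median change of 0 left 38 higher genes, all among the 63, and 0 lower ones. Without the fraction term the test called Egr1 alone.

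Egr1, a zinc finger transcription factor and the model immediate early gene, led the list. It stood at 88.2, 71.1 and 109 RPKM in chromatin, nucleoplasmic and cytoplasmic RNA at 15 min, against 1.14, 0.664 and 0.606 RPKM at 0 min. The RPKM ratio in chromatin RNA was 77.4 (95% exact counting interval 66.3 to 91.0, on 14179 and 161 reads), and that in cytoplasmic RNA 179 (125 to 268). Its mean log2 ratio over the fractions was 6.11 ± 0.18 (SE, 3 fractions; limma adjusted p = 8.70e-09). Next came Cxcl2, a chemokine that draws neutrophils, with 154, 125 and 29.4 RPKM at 15 min against 2.75, 2.17 and 1.01 RPKM at 0 min. Its mean log2 ratio was 5.15 ± 0.22 (limma adjusted p = 1.98e-07).

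Tnf, the cytokine that spreads the inflammatory signal, had the highest level in each fraction at 15 min among the 10 genes with the largest mean log2 ratio. It had 414, 474 and 115 RPKM at 15 min in the 3 fractions and 20.6, 14.9 and 6.51 RPKM at 0 min, a mean log2 ratio of 4.43 ± 0.19 (limma adjusted p = 1.76e-07). Dusp1, a phosphatase that switches off p38 and JNK, had 131, 90.7 and 64.4 RPKM at 15 min against 8.29, 5.03 and 2.91 RPKM at 0 min. Its log2 ratios were 3.90, 4.04 and 4.25, and their mean was 4.06 ± 0.14 (limma adjusted p = 4.41e-08). The other 6 of the 10 largest mean log2 ratios were those of Cxcl1 (4.03), Fos (3.90), Ier2 (3.89), Nfkbiz (3.86), Egr2 (3.72) and Ppp1r15a (3.42), with limma adjusted p of 2.14e-06 to 7.17e-06. In each of these 10 genes the lowest of the 3 values at 15 min lay above the highest of the 3 at 0 min.

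**Figure D1:**
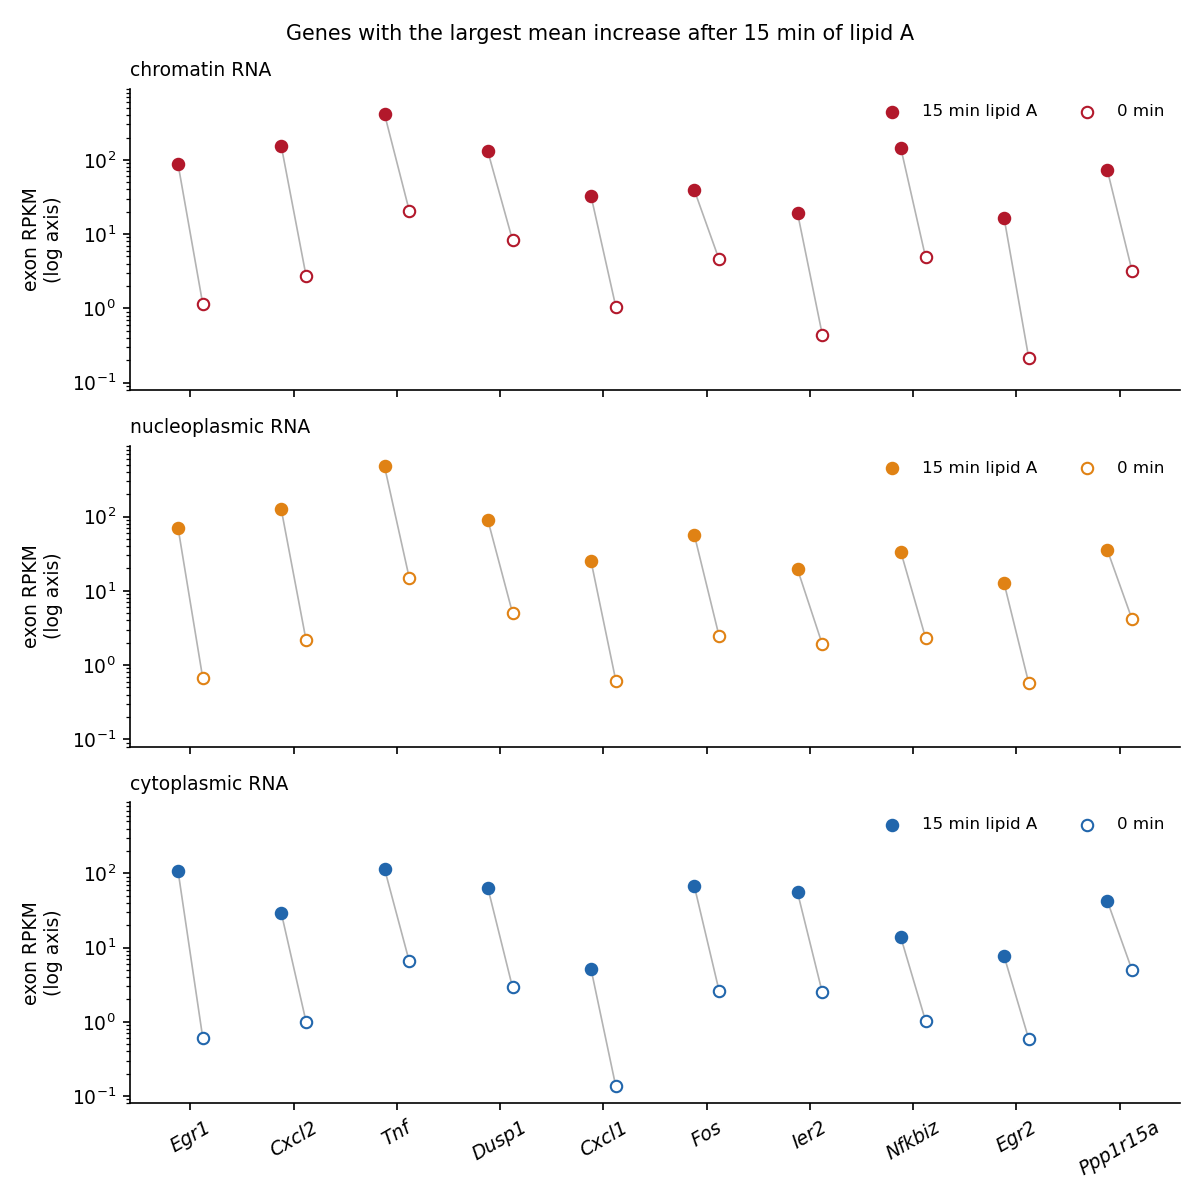
Exon RPKM on a log axis of the 10 genes with the largest mean log2 ratio in the paired test, in chromatin, nucleoplasmic and cytoplasmic RNA. Filled points are the 15 min libraries and open points the 0 min libraries, 1 library each, joined by a line per gene; every 15 min point lies above its 0 min point, as for Egr1 with 88.2 against 1.14 RPKM in chromatin RNA.

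Dusp1, Zfp36, Fos, Tnf, Cxcl2 and Nfkbia, all higher in the paired test, are shown with the 250 bases before their transcription start, because their promoters hold different short motifs. The sequences are RefSeq promoters of build GRCm38.p6, read 5′ to 3′ on the gene's strand, with motif matches in capitals: TGACGTCA, the cAMP response element, in Dusp1 (chr17:26508473-26508722, minus strand), a CArG box, which SRF can bind, in Zfp36 (chr7:28379229-28379478, minus strand), TATAAA in Fos (chr12:85473640-85473889, plus strand) and Tnf (chr17:35202008-35202257, minus strand), and a kappaB site in Fos, Cxcl2 (chr5:90903649-90903898, plus strand) and Nfkbia (chr12:55492648-55492897, minus strand).
Dusp1: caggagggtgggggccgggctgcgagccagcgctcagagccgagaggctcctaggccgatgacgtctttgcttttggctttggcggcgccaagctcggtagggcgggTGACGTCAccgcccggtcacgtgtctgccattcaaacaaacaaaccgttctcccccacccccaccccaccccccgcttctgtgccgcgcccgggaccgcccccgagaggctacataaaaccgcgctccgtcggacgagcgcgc
Zfp36: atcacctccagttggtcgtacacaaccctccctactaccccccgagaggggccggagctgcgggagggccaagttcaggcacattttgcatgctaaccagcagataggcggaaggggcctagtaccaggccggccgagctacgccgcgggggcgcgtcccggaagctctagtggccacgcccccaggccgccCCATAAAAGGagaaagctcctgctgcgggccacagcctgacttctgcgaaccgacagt
Fos: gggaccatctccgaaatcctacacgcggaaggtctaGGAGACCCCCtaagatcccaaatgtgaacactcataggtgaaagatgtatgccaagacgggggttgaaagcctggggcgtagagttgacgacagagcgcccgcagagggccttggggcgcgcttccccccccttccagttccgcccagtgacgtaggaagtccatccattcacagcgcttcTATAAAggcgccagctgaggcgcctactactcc
Tnf: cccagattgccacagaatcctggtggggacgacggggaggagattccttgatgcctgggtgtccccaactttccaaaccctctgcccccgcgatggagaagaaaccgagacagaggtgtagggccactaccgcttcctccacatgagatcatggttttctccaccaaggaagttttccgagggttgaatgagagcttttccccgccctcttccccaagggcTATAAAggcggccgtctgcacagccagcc
Cxcl2: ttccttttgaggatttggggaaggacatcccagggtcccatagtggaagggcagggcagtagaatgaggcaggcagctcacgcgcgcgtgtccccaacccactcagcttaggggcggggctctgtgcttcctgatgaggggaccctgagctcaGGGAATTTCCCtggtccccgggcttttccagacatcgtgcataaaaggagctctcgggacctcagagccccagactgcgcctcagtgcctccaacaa
Nfkbia: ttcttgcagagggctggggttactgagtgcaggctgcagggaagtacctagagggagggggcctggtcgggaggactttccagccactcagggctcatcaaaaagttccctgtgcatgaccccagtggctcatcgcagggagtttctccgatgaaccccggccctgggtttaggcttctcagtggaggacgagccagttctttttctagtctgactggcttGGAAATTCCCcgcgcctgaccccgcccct

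The TGACGTCA of Dusp1 lies 143 to 136 bases before the start and the CArG box of Zfp36 58 to 49 bases before it. TATAAA begins 33 bases before the start in Fos and 29 bases before it in Tnf. The capitals of Cxcl2 cover 2 overlapping kappaB matches, 1 per strand, and the kappaB match of Nfkbia lies 29 to 20 bases before its start. Each is a match of letters only.

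Over 46 of the 63 genes higher in the paired test that had a RefSeq promoter, 9 (19.6%) held TATAAA on either strand, compared with 6.03% of 7780 measured genes and 13.0% of all 27025 promoters of the table. With TATAAA on the gene's strand near the usual place of a TATA box the counts were 7 (15.2%) of the 46, 1.14% of measured genes and 2.36% of all promoters. A kappaB site was found in 10 (21.7%), against 8.52% and 7.01%, and TGACGTCA in 4 (8.70%), against 3.03% and 1.62%. The AP-1 motif TGANTCA was held by 2 (4.35%), against 4.23% and 6.87%, and a CArG box by 2 (4.35%), against 1.08% and 1.40%. In the 138 promoters of genes past 2-fold higher in chromatin RNA, TATAAA was in 13.8% and a kappaB site in 22.5%. In the 111 promoters of genes past 2-fold lower in chromatin RNA, the shares were 10.8% and 11.7%, also above those of measured genes. Both strands were searched for every motif, a position matched by 2 motifs counts for both, and these shares were not tested.

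Each fraction was then taken on its own, with no test, since it has 1 library per time. A gene was called past 2-fold where its log2 ratio of RPKM + 0.5 at 15 min to that at 0 min was 1 or more, or -1 or less. Chromatin RNA had 176 higher genes (1.83% of 9613) and 132 lower ones (1.37%). Nucleoplasmic RNA had 86 higher (0.895%) and 21 lower (0.218%), and cytoplasmic RNA 44 higher (0.458%) and 13 lower (0.135%). Past 4-fold, 73, 32 and 22 genes were higher in chromatin, nucleoplasmic and cytoplasmic RNA, and 2, 0 and 0 lower. The median log2 ratio of all 9613 genes was -0.12 in chromatin, -0.07 in nucleoplasmic and 0.03 in cytoplasmic RNA. After rescaling to these medians, 74.1% of the chromatin calls were higher ones, in place of 57.1%.

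Most genes higher in cytoplasmic RNA were also higher in the other fractions. All 3 fractions shared 36 genes, which are 20.5% of the chromatin list, 41.9% of the nucleoplasmic list and 81.8% of the cytoplasmic list. Of the 63 genes higher in the paired test, 60 were past 2-fold in chromatin, 50 in nucleoplasmic and 41 in cytoplasmic RNA. The 3 that reached it in no fraction were Klf2, a transcription factor of quiescent leukocytes, Vegfa, an angiogenic growth factor, and Apbb3, named here for that count after their values were seen. Klf2 had log2 ratios of 0.76, 0.88 and 0.95 in chromatin, nucleoplasmic and cytoplasmic RNA. Past 2-fold higher in chromatin RNA alone were 106 genes, in nucleoplasmic RNA alone 21 and in cytoplasmic RNA alone 3 (Gm10863, Prkag1 and Rora, likewise named after their values were seen).

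**Figure D2:**
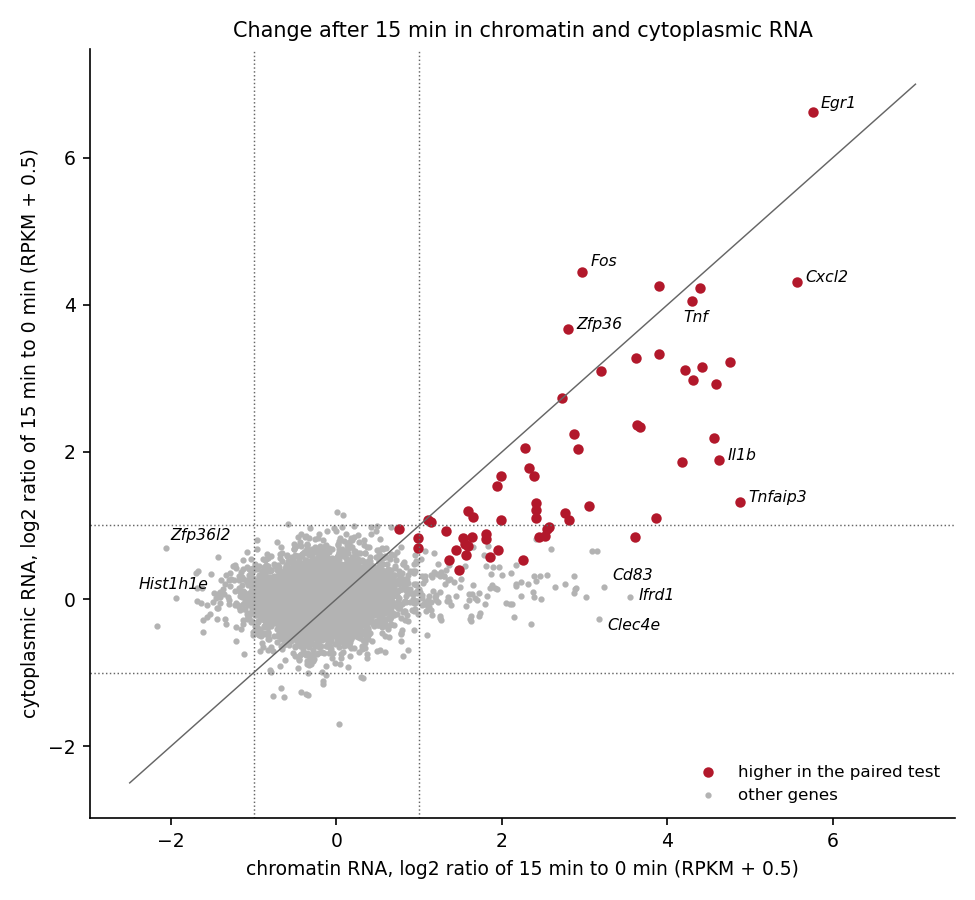
Log2 ratio of 15 min to 0 min (RPKM + 0.5) in chromatin RNA, on the horizontal axis, and in cytoplasmic RNA, on the vertical axis, for 9613 genes, with dotted lines at 2-fold and a line of equality. The 63 genes higher in the paired test are red; most red points lie to the right of the line, such as Tnfaip3 at 4.88 in chromatin and 1.32 in cytoplasmic RNA, while Fos, Zfp36 and Egr1 lie above it.

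Immediate early transcription factors were the first of the gene lists examined. All lists were chosen with earlier results of these data known. Their counts stand beside shares of all 9613 genes of 1.83% higher and 1.37% lower in chromatin RNA. The shares were 0.895% and 0.218% in nucleoplasmic and 0.458% and 0.135% in cytoplasmic RNA, and 0.655% rose in the paired test. Of 6 measured Egr and Nr4a genes, 4 were past 2-fold higher in chromatin RNA and 0 lower, and the median log2 ratio was 3.48. Egr2, Egr3 and Nr4a1 were below 1 RPKM in every 0 min library. They are among the measured genes only through 15 min libraries, which raises the count and the median. Egr2 had 16.7, 12.8 and 7.72 RPKM in chromatin, nucleoplasmic and cytoplasmic RNA at 15 min, against 0.213, 0.569 and 0.584 RPKM at 0 min. Egr3 had log2 ratios of 3.86, 1.99 and 1.10, and Nr4a1, an orphan nuclear receptor, of 3.09, 1.37 and 0.65. With a pseudocount of 1 RPKM the cytoplasmic value of Egr3 was 0.82 and the nucleoplasmic value of Nr4a1 0.91, both inside 2-fold. For Nr4a1 the paired test gave a limma adjusted p of 0.0574. The fall of the log2 ratio across the fractions in these 3 genes was not seen in Egr1, at 5.76, 5.94 and 6.62.

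Among 15 measured AP-1 and related bZIP genes, whose products pair to bind DNA, 8 were higher in chromatin RNA, 4 in nucleoplasmic and 3 in cytoplasmic RNA, and 0 lower. Fos had 39.3, 57.2 and 67.8 RPKM at 15 min in chromatin, nucleoplasmic and cytoplasmic RNA, against 4.57, 2.47 and 2.64 RPKM at 0 min. Its RPKM ratio was 8.59 in chromatin RNA (95% counting interval 7.79 to 9.50) and 25.7 in cytoplasmic RNA (20.7 to 32.3). The intervals do not overlap, but they cover counting error only, with 1 library per fraction and time. Junb had 42.8, 56.7 and 94.2 RPKM at 15 min against 2.41, 9.12 and 8.88 RPKM at 0 min. Atf3, a repressor of inflammatory genes, had log2 ratios of 3.14, 1.21 and 0.65, and Jun of 2.39, 1.49 and 1.67. Cebpb, Fosb, Maff and Jund were past 2-fold in chromatin RNA alone, with log2 ratios of 1.23 to 2.42 there. Fosb and Maff reached 1 RPKM only in the chromatin library of 15 min, at 1.57 and 1.67 RPKM. They are among the measured genes only through that library, which raises the chromatin count. Jund had 0.93 with a pseudocount of 1 RPKM.

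Other early transcription factors were a mixed group. Of 26 measured Klf, Myc, Id, Ets and related genes, 7 were higher and 1 lower in chromatin RNA, and the median log2 ratio was 0.45. Irf1, an interferon regulatory factor, had 99.7, 34.2 and 18.5 RPKM at 15 min in the 3 fractions and 7.70, 12.7 and 10.1 RPKM at 0 min (limma adjusted p = 0.0476). Id3, an inhibitor of basic helix-loop-helix factors, had log2 ratios of 2.92, 0.90 and 2.04, with 5.86, 1.74 and 3.50 RPKM at 15 min. It was below 1 RPKM in every 0 min library and is measured only through those of 15 min. Srf, itself a regulator of immediate early genes, was past 2-fold in chromatin RNA alone, at 3.55 RPKM against 1.20 RPKM. The lower gene was Bhlhe41, a circadian repressor, with log2 ratios of -1.09 in chromatin and -1.10 in nucleoplasmic RNA and -0.02 in cytoplasmic RNA. Its chromatin value was -0.97 after rescaling.

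Immediate early genes that do not encode transcription factors made up the list with the most calls. Of 27 measured, 21 were higher in chromatin RNA, 13 in nucleoplasmic and 10 in cytoplasmic RNA, and 15 rose in the paired test. Gem, Kdm6b and Odc1 reached 1 RPKM only in the chromatin library of 15 min and are measured only through it. Phlda1, Plk3 and Ptgs2 were likewise below 1 RPKM in every 0 min library and are measured only through 15 min libraries. Such genes raise the counts of higher genes. With a pseudocount of 1 RPKM Csrnp1 and Phlda1 lay inside 2-fold in cytoplasmic RNA, at log2 ratios of 0.83 and 0.94. So did Odc1 in chromatin RNA (0.82) and Trib1 in nucleoplasmic RNA (0.84). Ier2, a nuclear protein of growth responses, had 19.3, 19.5 and 55.4 RPKM at 15 min against 0.443, 1.91 and 2.49 RPKM at 0 min. Ppp1r15a, which brings protein phosphatase 1 to eIF2alpha, had 73.2, 35.6 and 42.6 RPKM against 3.20, 4.15 and 4.98 RPKM. Btg2, an antiproliferative protein, had 65.2, 60.6 and 36.4 RPKM against 6.67, 4.97 and 3.81 RPKM, with log2 ratios of 3.20, 3.48 and 3.10. Gadd45b, which acts in stress kinase signalling, had log2 ratios of 2.87, 2.01 and 2.24. Ptgs2, the inducible cyclooxygenase, reached 5.08 RPKM in chromatin RNA against 0.262 RPKM, and 0.259 RPKM in cytoplasmic RNA against 0.108 RPKM. The lower gene was Rgs2, an inhibitor of Gq signalling, at 9.84 RPKM in chromatin RNA against 22.1 RPKM.

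Brakes on MAP kinase signalling had calls in both directions. Of 12 measured genes, those of dual-specificity phosphatases and the Sprouty family with Errfi1, 5 were higher and 2 lower in chromatin RNA, against 1.83% and 1.37% of all genes. Dusp2 and Dusp5 were below 1 RPKM in every 0 min library. They are measured only through 15 min libraries, which raises the count of higher genes. Dusp2, which acts on ERK and p38, had 9.44, 5.88 and 3.24 RPKM at 15 min in the 3 fractions, against 0.282, 0.339 and 0.238 RPKM at 0 min, and with Dusp1 it rose in the paired test (limma adjusted p = 1.39e-05). Errfi1, an inhibitor of the EGF receptor, Dusp5 and Dusp4 had chromatin log2 ratios of 2.87, 2.59 and 2.10 and cytoplasmic ones of 0.08, 0.68 and -0.07. The lower genes were those of the ERK phosphatases Dusp6 and Dusp7. Dusp6 had 3.87 RPKM in chromatin RNA against 11.3 RPKM, 15.0 RPKM in nucleoplasmic RNA against 13.5 RPKM, and 16.2 RPKM in cytoplasmic RNA against 10.7 RPKM.

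Genes for proteins that bind AU-rich mRNA or cut mRNA were also split. Of 10 measured, 3 were higher and 1 lower in chromatin RNA, and 3 higher and 0 lower in cytoplasmic RNA. Zfp36, tristetraprolin, which speeds the decay of Tnf mRNA, had 116, 138 and 202 RPKM at 15 min against 16.2, 20.4 and 15.4 RPKM at 0 min. Its RPKM ratio was 7.15 in chromatin RNA (95% counting interval 6.76 to 7.58) and 13.1 in cytoplasmic RNA (11.8 to 14.5). Zc3h12a, the RNase Regnase-1, and Zfp36l1 also rose in the paired test, with limma adjusted p of 0.00668 and 0.0251. With a pseudocount of 1 RPKM the cytoplasmic log2 ratio of Zc3h12a was 0.95, inside 2-fold. Zfp36l2, of the same family as Zfp36, had 4.43 RPKM in chromatin RNA against 20.1 RPKM, an RPKM ratio of 0.220 (0.204 to 0.238), but 39.6 RPKM in cytoplasmic RNA against 24.4 RPKM, a ratio of 1.62 (1.52 to 1.74).

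NF-kappaB subunits and feedback genes were higher mainly in chromatin RNA. Of 21 measured, 14 were higher in chromatin RNA, 4 in nucleoplasmic and 4 in cytoplasmic RNA, with 0 lower, and the median log2 ratios were 1.35, 0.08 and 0.15. Nfkbia, IkappaBalpha, had 322, 176 and 151 RPKM at 15 min in the 3 fractions, against 16.8, 23.9 and 17.1 RPKM at 0 min. Tnfaip3, the ubiquitin-editing enzyme A20, had 104, 21.8 and 6.93 RPKM against 3.05, 3.27 and 2.47 RPKM. Its RPKM ratio was 34.1 in chromatin RNA (95% counting interval 31.5 to 37.0), 6.67 in nucleoplasmic (5.99 to 7.45) and 2.81 in cytoplasmic RNA (2.36 to 3.36). Nfkbiz, a nuclear IkappaB protein that helps induce Il6 and other genes, had 145, 33.7 and 13.8 RPKM against 4.90, 2.34 and 1.03 RPKM. Tnip3, a partner of A20, had chromatin and cytoplasmic log2 ratios of 3.02 and 0.02. The subunit genes Rela, Relb and Nfkb2 had chromatin log2 ratios of 1.35, 1.18 and 1.5 and cytoplasmic ones of 0.03, 0.62 and 0.16. With a pseudocount of 1 RPKM Relb had a chromatin log2 ratio of 0.99, just inside 2-fold, and Traf1 of 0.90. The cytoplasmic log2 ratio of Nfkbid was then 0.93, also inside 2-fold.

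Chemokine genes had calls in every fraction. Of 13 measured, 8 were higher in chromatin RNA, 8 in nucleoplasmic and 6 in cytoplasmic RNA, and 7 rose in the paired test. Cxcl1, like Cxcl2 a ligand of CXCR2, had 32.7, 25.3 and 5.15 RPKM at 15 min against 1.05, 0.620 and 0.135 RPKM at 0 min. Only 2 reads stood behind the cytoplasmic 0 min value, so its RPKM ratio of 38.1 had a counting interval of 10.2 to 320. Ccl3 and Ccl4, which draw monocytes, had log2 ratios of 1.99, 2.43 and 1.67 and of 2.32, 2.08 and 1.78. Ccl12, a ligand of CCR2, had log2 ratios of 2.57, 2.34 and 0.98. Ccl5 was past 2-fold lower in chromatin RNA, at 0.612 RPKM against 1.92 RPKM, and at 3.71 RPKM against 2.66 RPKM in cytoplasmic RNA. With a pseudocount of 1 RPKM its chromatin log2 ratio was -0.86.

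Cytokine genes had most calls in chromatin RNA. Of 12 measured, 7 were higher in chromatin RNA, 5 in nucleoplasmic and 3 in cytoplasmic RNA, with 0 lower. Among the 7 is Il1a, which reached 1 RPKM only in the chromatin library of 15 min (1.80 RPKM) and is measured only through it. Il1b, interleukin-1beta, had 40.9, 12.6 and 2.61 RPKM at 15 min in the 3 fractions, against 1.18, 1.39 and 0.339 RPKM at 0 min. Tnfsf9, the ligand of 4-1BB, had 105, 66.1 and 12 RPKM against 3.93, 8.10 and 2.24 RPKM. Il10, the anti-inflammatory cytokine, had 15.9, 15.5 and 2.01 RPKM against 2.35, 1.56 and 0.885 RPKM, and rose in the paired test (log2 ratio 2.11 ± 0.30, limma adjusted p = 0.00572). Il1rn, the interleukin-1 receptor antagonist, had log2 ratios of 2.17, 0.52 and 0.21.

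Toll-like receptor 4 signalling genes and surface receptors came next. Of 26 measured genes of the Toll-like receptor 4 pathway, 2 were higher in chromatin RNA, where 1.83% of all genes were, and none passed 2-fold in the other fractions. Their median chromatin log2 ratio was -0.00, and that of all genes -0.12. These were Tlr2, at 31.2 RPKM against 8.07 RPKM, and the co-receptor Cd14, at 139 RPKM against 43.8 RPKM. Of 23 surface receptors, 4 were higher in chromatin RNA. Ccrl2, a receptor that binds chemerin, had 42.8, 30.6 and 5.62 RPKM at 15 min against 1.90, 4.98 and 1.19 RPKM at 0 min. Of 20 arrestin-like and FoxO-linked genes, 1 was higher, Cited2, a transcriptional coregulator (chromatin log2 ratio 1.33; higher also in the paired test, limma adjusted p = 0.00536), and 2 lower, Arrdc3 and Txnip. Of 10 hosts of small nucleolar RNA and nuclear noncoding RNAs, Snhg8 was higher and Snhg3 and Snhg12 lower in chromatin RNA, and Snhg1 and Snhg8 were higher in nucleoplasmic RNA. Snhg12 lay inside 2-fold with a pseudocount of 1 RPKM, at a chromatin log2 ratio of -0.89, and after rescaling, at -0.96. Of 29 interferon-stimulated genes, 1 was higher, Gbp5, with a chromatin log2 ratio of 1.84.

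Several further lists are given by their counts, beside which 1.83% of all genes were higher and 1.37% lower in chromatin RNA. None of 25 splicing factors or 20 mitotic genes passed 2-fold in any fraction. Of 23 genes of oxidative phosphorylation 1 did, Ndufa1, with a chromatin log2 ratio of 1.17. The 18 cytoskeletal SRF targets had 1, Actg1, higher in nucleoplasmic RNA. Of 16 housekeeping genes, Eef1a1 was higher and Gapdh lower in chromatin RNA. Values of Actg1, Eef1a1 and Gapdh are uncertain. Near-identical copies in the genome may share their reads, which was not tested, and the handling of multiply mapped reads was not given. Gapdh had only 1 cytoplasmic read at 15 min and 0 at 0 min. With a pseudocount of 1 RPKM the chromatin log2 ratio of Gapdh was -0.93, inside 2-fold. Of 18 genes of glycolysis and glucose transport, Gapdh was the lower one in chromatin RNA and 1 was higher, Slc2a6, a sugar transporter of lysosomes, with 42.8 RPKM in chromatin RNA against 7.97 RPKM and 3.01 RPKM in cytoplasmic RNA against 3.97 RPKM.

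**Figure D3:**
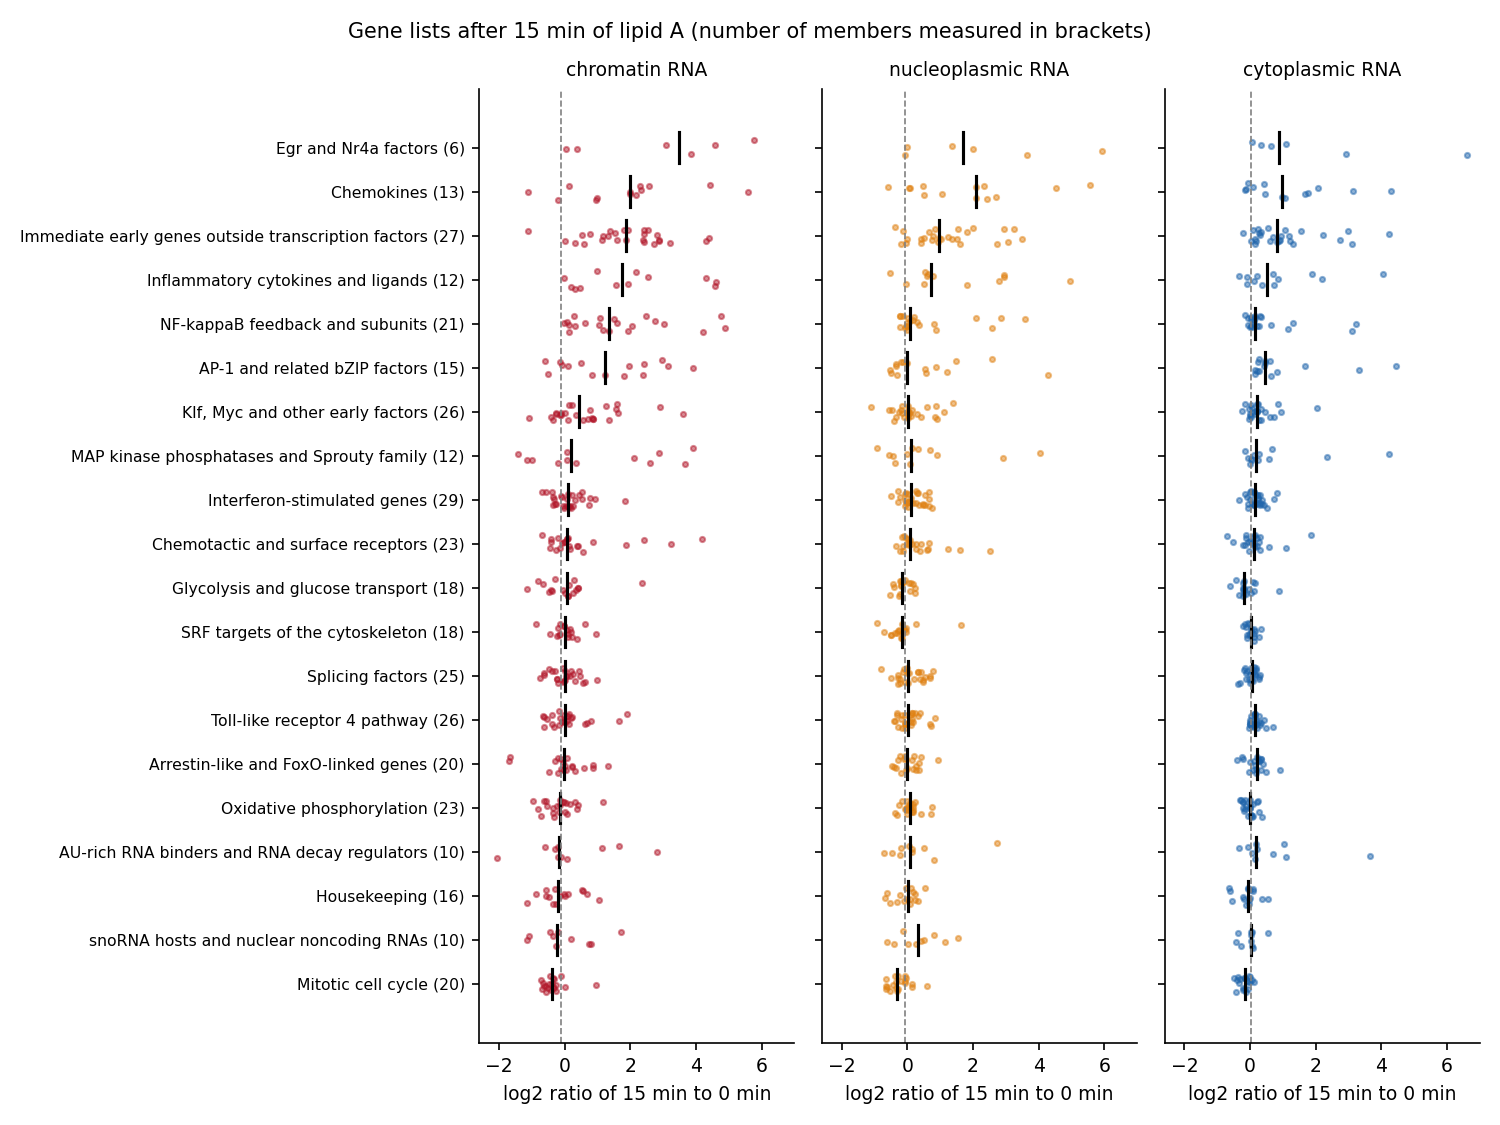
Log2 ratio of 15 min to 0 min for each measured member of 20 gene lists (points) with the list's median (bar), in chromatin, nucleoplasmic and cytoplasmic RNA; the dashed line is the median of all 9613 genes. The Egr and Nr4a list has the highest median in chromatin RNA, 3.48, and the Toll-like receptor 4 pathway has -0.00.

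The order of the fractions was then compared gene by gene. Of the 176 genes higher in chromatin RNA, 171 (97.2%) had a larger log2 ratio there than in cytoplasmic RNA, and their median log2 ratios were 1.81 in chromatin, 0.69 in nucleoplasmic and 0.31 in cytoplasmic RNA. Chromatin values chose these genes, so the larger chromatin value is in part a result of that choice. Conversely, of the 44 genes chosen as higher in cytoplasmic RNA, 8 had a larger log2 ratio there than in chromatin RNA, among them Fos, Egr1, Zfp36, Dusp1 and Ier3, and their medians were 2.94, 2.54 and 1.97. Tnfaip3, Ifrd1, Clec4e, Cd83 and Tnip3 had the largest excess of the chromatin over the cytoplasmic log2 ratio.

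Ifrd1, a transcriptional coregulator, had 79.3 RPKM in chromatin RNA against 6.32 RPKM, and 4.17 RPKM in cytoplasmic RNA against 4.06 RPKM. The cytoplasmic RPKM ratio was 1.03 (95% counting interval 0.791 to 1.33), and the chromatin one 12.5 (11.5 to 13.7). Clec4e, the receptor Mincle, which senses mycobacterial glycolipid, had 78.2 RPKM in chromatin RNA against 8.18 RPKM and 5.04 RPKM in cytoplasmic RNA against 6.22 RPKM. In cytoplasmic RNA, Ifrd1 stood at 4.06, 4.17, 51.3 and 74.3 RPKM at 0, 15, 30 and 60 min, and Clec4e at 6.22, 5.04, 24.7 and 98.2 RPKM. Of the 176 genes higher in chromatin RNA at 15 min, 114 (64.8%) were 2-fold or more higher in cytoplasmic RNA at 30 min than at 15 min, compared with 170 (1.77%) of all 9613 genes. None of the 176 was 2-fold lower.

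The opposite excess, of the cytoplasmic over the chromatin log2 ratio, was largest for Zfp36l2, Tmem69, Arrdc3, Dusp6 and Hist1h1e, all lower in chromatin RNA. Arrdc3, an arrestin-like protein, had 1.78, 5.76 and 5.35 RPKM at 15 min in the 3 fractions, against 6.91, 4.77 and 4.1 RPKM at 0 min. In chromatin RNA it stood at 6.91, 1.78, 0.551 and 0.179 RPKM at 0, 15, 30 and 60 min, and in cytoplasmic RNA at 4.1, 5.35, 2.43 and 0.537 RPKM. Zfp36l2 stood at 20.1, 4.43, 3.33 and 2.0 RPKM in chromatin RNA and at 24.4, 39.6, 38.9 and 13.5 RPKM in cytoplasmic RNA at these times. Txnip, an arrestin-like protein that binds thioredoxin, had 35 RPKM in chromatin RNA against 113 RPKM, and 78.3 RPKM in cytoplasmic RNA against 79.7 RPKM.

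Genes lower in chromatin RNA were led by Snhg10, a host of small nucleolar RNA, at 0.289 RPKM against 3.04 RPKM (8 and 74 reads; RPKM ratio 0.0950, 95% counting interval 0.0395 to 0.197). It was also lower in nucleoplasmic RNA, at 0.361 RPKM against 2.0 RPKM. The linker histone gene Hist1h1e had 6.12 RPKM in chromatin RNA against 24.9 RPKM, and the core histone gene H2afj 0.795 RPKM against 3.67 RPKM. In cytoplasmic RNA these histone transcripts had 62.9 RPKM against 62.4 RPKM and 4.63 RPKM against 4.15 RPKM. Of 39 measured histone genes, counted after the values were seen, 12 were lower in chromatin RNA and 2 higher, and in cytoplasmic RNA 0 passed 2-fold. Of all genes, 1.37% were lower and 1.83% higher in chromatin RNA. Many histone genes are short, and 13.5% of all genes with exon lengths up to 500 bases were lower there. The share was 6.72% above 500 and up to 1000 bases, 1.59% above 1000 and up to 2000 bases and 0.825% above 2000 and up to 4000 bases. Exon lengths of the 12 lower histone genes ran from 465 to 2977 bases, with 1931 bases for Hist1h1e and 1827 bases for H2afj. The part of length in the histone values was not tested. The median log2 ratios of the 39 histone genes were -0.65, -0.22 and -0.08 in chromatin, nucleoplasmic and cytoplasmic RNA. The number of genes lower in chromatin RNA depended on the pseudocount, with 364 at 0.1 RPKM and 50 at 1 RPKM, and was 73 after rescaling.

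Genes lower in chromatin RNA were shorter over their exons. Their median exon length was 1173 bases and 41.7% were under 1000 bases, compared with 2801 bases and 7.19% among the genes not past 2-fold in chromatin RNA. The higher genes had a median of 2145 bases, with 10.9% under 1000 bases. Over all genes, the median chromatin log2 ratio was -0.35 for exon lengths up to 500 bases, -0.27 for those above 500 and up to 1000 bases and -0.10 above 4000 bases. In cytoplasmic RNA the medians of the same groups were 0.06, -0.00 and 0.07. The part of length in the lower values was not tested.

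**Figure D4:**
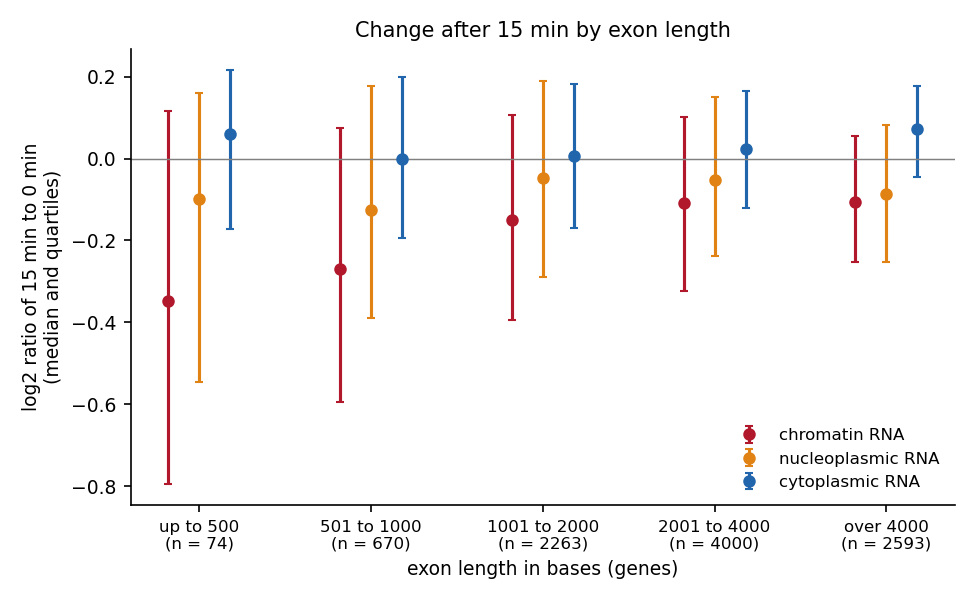
Median log2 ratio of 15 min to 0 min (points) with quartiles (bars) for genes grouped by exon length in bases, in chromatin, nucleoplasmic and cytoplasmic RNA. Chromatin RNA runs to -0.35 in the shortest group, where cytoplasmic RNA is at 0.06.

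In the paired test 2 genes fell, and 1 of them is described. AA467197 had 0.179, 0.696 and 0.280 RPKM at 15 min in chromatin, nucleoplasmic and cytoplasmic RNA, against 0.578, 1.59 and 1.30 RPKM at 0 min, on 3 to 14 reads and 13 to 26 reads. Each 15 min value lay below the 0 min value of its fraction, while the values of the 2 times overlapped across fractions. Its mean log2 ratio was -0.89 ± 0.17 (SE, 3 fractions; limma adjusted p = 0.0465). It did not pass the limma test without the nucleoplasmic pair (adjusted p = 0.20) or without the cytoplasmic pair (adjusted p = 0.242). The number of lower genes was 15 without the chromatin pair, 0 without the nucleoplasmic pair and 10 without the cytoplasmic pair.

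Few genes were lower in nucleoplasmic or cytoplasmic RNA, and 0 genes in all 3 fractions. Nucleoplasmic RNA had 15 lower genes that no other fraction shared, led by Hist2h3b, a histone gene, at 5.50 RPKM against 22.2 RPKM, and Nap1l1, a histone chaperone, at 1.74 RPKM against 7.85 RPKM. Their cytoplasmic RPKM ratios were 0.960 (95% counting interval 0.833 to 1.11) for Hist2h3b and 1.31 (1.05 to 1.64) for Nap1l1. All 13 genes lower in cytoplasmic RNA were lower there alone. They were led by Qpct, which forms pyroglutamate at protein ends, with 1.89 RPKM at 15 min against 7.24 RPKM at 0 min, and Magoh, of the exon junction complex, with 5.20 RPKM against 13.8 RPKM. In chromatin RNA Qpct had 4.96 RPKM at 15 min and 4.85 RPKM at 0 min. Pla2g2e and E130112N10Rik rested on 5 and 1 cytoplasmic reads at 15 min, against 21 and 18 at 0 min, and with a pseudocount of 1 RPKM their cytoplasmic log2 ratios were -0.94 and -0.83.

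A second deposited table holds 560 genes with values relative to the whole gene, introns included, and allowed the share of exon signal to be followed. The authors chose these genes and their classes on these samples, so their direction in chromatin RNA is not independent evidence. Of the 560, 362 were found under the same RefSeq accession among the 9613 genes with 1 RPKM in at least 1 of the 6 libraries. Of these 362, 111 (30.7%) were past 2-fold higher in chromatin RNA by exon values, against 1.83% of all genes. The calls were unevenly spread over the authors' classes. They took in all 16 genes of class A1, 26 of 43 in A2 and 57 of 78 in C, but 1 of 37 in B, 9 of 59 in D, 1 of 55 in E and 1 of 74 in F. The full classes hold 58 genes in A2, 98 in C, 56 in B, 97 in D, 116 in E and 119 in F, so genes outside the 362 are not counted. By promoter type, 68 of 212 genes labelled CpG and 43 of 150 labelled LCG were higher.

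Exon RPKM divided by whole-gene RPKM was lower at 15 min for most genes of the table in each fraction, by values that were not tested. The log2 change was below 0 for 181 of 263 genes in chromatin, 274 of 308 in nucleoplasmic and 189 of 263 in cytoplasmic RNA. Among 77 genes past 2-fold higher in chromatin RNA, the median ratio there was 1.15 at 15 min against 1.51 at 0 min. Their median log2 change was -0.40, with 63 of 77 below 0. Among 186 genes of the table not past 2-fold the median change was -0.15, with 118 below 0. In cytoplasmic RNA the median change was -0.00 among 25 higher genes (17 below 0) and -0.02 among 238 others (172 below 0). In nucleoplasmic RNA it was -0.24 among 40 (36 below 0) and -0.18 among 268 (238 below 0). The genes given next were chosen after their values were seen. Sdc4, a surface proteoglycan, had an exon to whole-gene ratio of 0.852 in chromatin RNA at 15 min against 2.99 at 0 min, Cd83 of 0.653 against 2.02 and Il1b of 1.06 against 2.84. Tnf had 1.15 against 1.27 and Fos 1.20 against 1.07. Gdf15, a stress cytokine, went the other way, at 0.511 against 0.255.

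**Figure D5:**
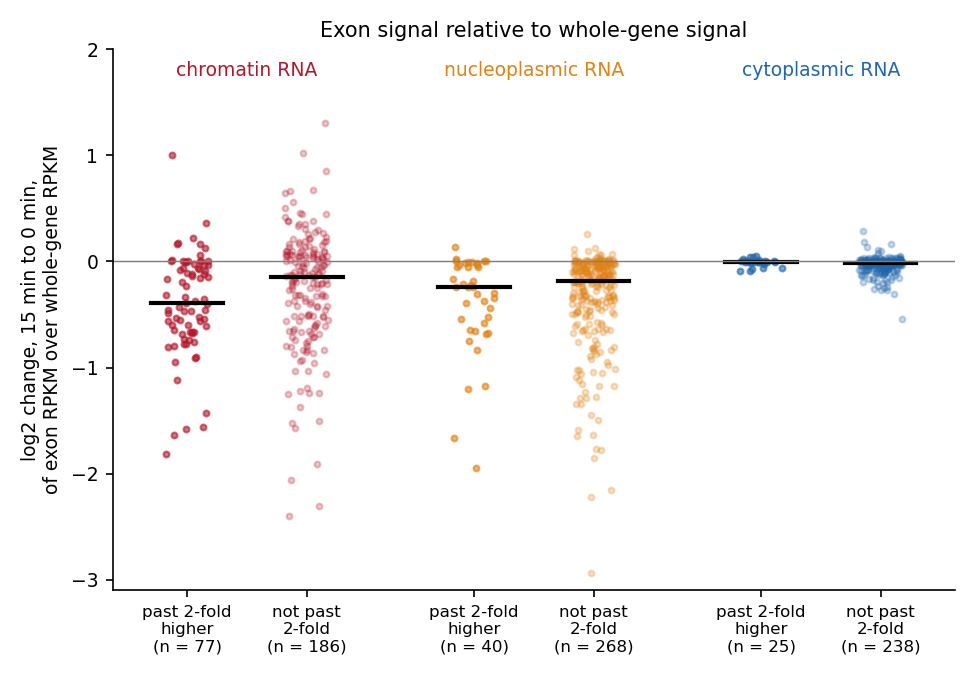
Log2 change, 15 min over 0 min, of exon RPKM over whole-gene RPKM, 1 point per gene, in genes past 2-fold higher (left of each pair) and in genes not past 2-fold (right), for chromatin, nucleoplasmic and cytoplasmic RNA; bars are medians. The chromatin medians are -0.40 and -0.15, and the cytoplasmic ones -0.00 and -0.02.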

How the data were processed

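The authors deposited RPKM values, per the file headers, in a table relative to exon length and in a table of 560 classed genes. Per the labels' protocols, RNA of the cytoplasmic, nucleoplasmic and chromatin fractions had ribosomal RNA removed and went into strand-specific dUTP libraries. Reads were aligned with TopHat to mm9, per the submitters' processing notes, while the TopHat version, counting tool, annotation and handling of multiply mapped reads were not given in the sources used here. That the second table is relative to the whole gene was read from the values. A further table with 3 value columns that match no described sample was left out.

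Changes are log2 ratios of RPKM + 0.5, which understate those of weakly expressed genes. The paired comparison used limma 3.58.1 in R 4.3.3 with terms for fraction and time and a trended prior, adjusted over 9613 genes, after a test on simulated data. Single fractions had no test, and 2-fold was the limit. For 99.9% of genes 1 exon length made all values whole reads (tolerance 0.02 reads, wider for large counts). Tnf was not among them and has no interval. Intervals (95%, exact) cover counting error only. Read from the values, genes without reads in a library appear to hold the worth of 1 read in the deepest library.

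Named genes are the 10 largest mean changes per direction in the paired test, the 10 highest and 5 lowest per fraction, list members past 2-fold with up to 4 in full, and the 5 largest differences between chromatin and cytoplasmic change in each direction. The members and lists were chosen with earlier results of these data known. Of 10020 genes 10009 matched RefSeq, and no mm9 coordinates were used. Promoters are RefSeq GRCm38.p6, 1 per gene. The alternatives are listed in the closing section. Some results are not reported here.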

Additional observations from a re-analysis of the deposited data

Results flagged for a closer look

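Kdelc1 and Crip1 were past 2-fold higher in nucleoplasmic RNA and past 2-fold lower in cytoplasmic RNA, and with 1 library per fraction and time the difference was not tested. Crip1, a small LIM-domain protein, had 138 RPKM in nucleoplasmic RNA at 15 min against 66.0 RPKM at 0 min, and 102 RPKM in cytoplasmic RNA against 214 RPKM, so that its log2 ratios differed by 2.12. Kdelc1, an enzyme of the endoplasmic reticulum, had 10.1 RPKM against 4.56 RPKM in nucleoplasmic RNA and 0.693 RPKM against 2.02 RPKM in cytoplasmic RNA, a difference of 2.14 on the log2 scale. In chromatin RNA Crip1 had 21.9 RPKM against 17.7 RPKM and Kdelc1 2.80 RPKM against 2.14 RPKM.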

How the results depend on the processing

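Counts of called genes were recomputed under each alternative, and the cause of each change was not tested unless stated. The 63 genes higher in the paired test became 38 after rescaling and 1 without the fraction term, and 52 to 86 with 1 fraction pair left out. The 2 lower genes became 0 with a pseudocount of 1 RPKM, after rescaling, with a filter of 5 RPKM and without the fraction term, and 0 to 15 with 1 pair left out. In chromatin RNA the 176 higher genes became 73 at 4-fold. The 132 lower ones became 364 and 50 with pseudocounts of 0.1 and 1 RPKM, 73 after rescaling, 74 with the filter of 5 RPKM and 2 at 4-fold. In nucleoplasmic RNA the 86 higher genes became 32 at 4-fold, and the 21 lower ones 65 and 12 with the 2 pseudocounts, 0 at 4-fold and 8 where the counting interval had to lie past 2-fold. In cytoplasmic RNA the 44 higher genes became 96 with 0.1 RPKM and 22 at 4-fold, and the 13 lower ones 39 and 5 with the 2 pseudocounts, 8 with the filter of 5 RPKM, 0 at 4-fold and 2 by the counting interval. The remaining alternatives kept these counts within 1.5 times. Of 225 values of named genes past 2-fold, 0 lost the call with 0.1 RPKM, 24 with 1 RPKM and 6 after rescaling, and none changed sign under these alternatives. Of the 58 genes called with 1 RPKM and the 56 without a filter, all were among the 63. At 15 min a gene of 1 kb had 52.3 reads per RPKM in chromatin RNA and 16.8 in cytoplasmic RNA, which sets the counting error of each value.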
